A study of Arabidopsis thaliana with 3 samples.

Results

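The xyloglucan endotransglucosylase/hydrolase (XTH) family of Arabidopsis thaliana comprises the genes XTH1 to XTH33. Its members were found in the deposited root table by locus identifier, and where the table gives a name instead, by the symbol or synonym that points to that locus. All 33 genes were found among the 33446 listed genes, 20 under their annotated symbol and 13 under a synonym, such as XTR9 for XTH14, XTR8 for XTH31 and MERI5B for XTH24. The RNA came from whole roots of 14-day-old seedlings of the Columbia ecotype, grown under long days on vertical agar plates. All plants carried the INTACT construct, made for the purification of nuclei by a biotin tag, in which the constitutive 35S promoter drives a nuclear envelope domain of RanGAP1 fused to green fluorescent protein and that tag, and which of the independent transformed lines gave the RNA is not given in the sources used here. The 3 libraries were deposited as a single column of RPKM, which are read counts scaled by gene length and by the number of counted reads. The libraries form 1 condition, and plants without the construct were not analysed here, so the replicates could not be compared, no value carries a standard deviation, no test between groups was possible, and levels were compared between genes only, per length.

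Xyloglucan is the main hemicellulose of the primary wall in Arabidopsis, where it coats and tethers cellulose microfibrils. XTH enzymes cut a xyloglucan chain and either join the cut end to another chain, which is the endotransglucosylase reaction, or pass it to water, which is hydrolysis. In roots they are known from the zone where cells elongate and from growing root hairs, where walls must loosen and be rebuilt at the same time. The family is divided by sequence into group I (XTH1 to XTH11), group II (XTH12 to XTH26) and group III (XTH27 to XTH33). XTH31 and XTH32 form the branch of group III in which hydrolysis has been found.

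The catalytic core of the family is read from a short coding segment that holds the codons of both catalytic glutamates, the nucleophile and the acid/base. These 30 bases were located in the coding sequence of each gene in the TAIR10.1 reference, and they lie within 1 exon in all 33. They are shown for the highest member of each group, for the pair with the most alike coding sequences (XTH17 and XTH18), and for the members whose segment departs most from that of XTH14 (XTH9) or lacks a glutamate codon (XTH11). The last 2 were chosen after the segments had been seen. Capitals mark the codons of the catalytic glutamates, or the codon at the same place.
XTH14 (chr4:13130777-13130806, plus strand): tgggatGAGattgacttcGAGtttttggga
XTH17 (chr1:24257679-24257708, plus strand): tgggatGAGatcgatttcGAGttcttggga
XTH18 (chr4:14826569-14826598, minus strand): tgggatGAGattgatttcGAGttcttagga
XTH8 (chr1:3879651-3879680, minus strand): agagacGAGatagatttcGAAtttctaggg
XTH31 (chr3:16447882-16447911, minus strand): cacgatGAGgtcgatatcGAGtttctaggg
XTH9 (chr4:1416535-1416564, plus strand): cacaacGAAttcgattttGAGttcttaggg
XTH11 (chr3:18007737-18007766, plus strand): catgatGAGctctgtttcCAGatcttggga

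The segment was found by a pattern of residues that required a glutamate at the first site and allowed glutamate or glutamine at the second. A match was found in all 33 members, so each segment carried the first glutamate codon by construction. The codon of the second glutamate was present in 32. XTH11 was the exception. Against the segment of XTH14, and with positions counted from 1 at its 5′ end, XTH11 carried 11 substitutions, of which G19C falls in the codon of the second glutamate. XTH11 was listed at 0.691 RPKM. XTH9, with 13 bases differing from XTH14 and both glutamate codons in place, was listed at 23.2 RPKM. No 2 members had the same 30 bases, so there were 33 distinct segments. In spite of this, 12 members of group II (XTH12 to XTH14 and XTH17 to XTH25) encode the same residues as XTH14 over the segment, and their levels ran between 0.0319 and 212 RPKM. The low end of that range was XTH25 alone, with about 4 reads. The next lowest of the 12 was XTH22 at 9.80 RPKM, and their median was 40.2 RPKM.

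The depth behind the values was read from the spacing of low RPKM values. A library size of 118581261 reads brought 64.0% of 4327 values under 12 reads to within 0.05 of a whole number, where 10% would do so by chance for a size not fitted to them. Sizes of 237229035 and 355900187 reads gave 66.7% and 70.0%, while 59300952 reads gave 23.2%, so the smallest size that kept the share was used. The spacing did not settle whether the column holds a sum, a mean or a single library. If it holds a mean, the size may be too large and the intervals too narrow. At this size and with the exon lengths of TAIR10.1, about 198001 reads fell on the family. Intervals given below are 95% exact Poisson intervals on these estimated reads. They cover counting error only, not the variation between plants, and rest on annotated lengths that may differ from those the authors used. The labelled tissue was checked by marker genes. Above 1 RPKM were 7 of 7 root identity genes (2.19 to 203 RPKM), 6 of 6 root hair genes (17.0 to 240 RPKM), 3 of 4 leaf genes of photosynthesis (0.136 to 17.3 RPKM) and neither of the floral genes AG and AP1 (at most 0.0345 RPKM), beside 56.0% of all listed genes. The leaf genes thus overlapped the root identity genes in level, with medians of 11.4 RPKM for the root identity genes and 8.27 RPKM for the leaf genes.

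Most of the family was expressed in roots. Of the 33 members, 26 (78.8%) were above 1 RPKM, the level at which the study called a gene expressed, against 56.0% of all listed genes and 68.4% of the 26434 genes matched to a protein-coding locus. The median of the members was 25.1 RPKM (quartiles 3.62 and 52.3 RPKM). That of all listed genes was 2.21 RPKM, and that of the genes matched to a protein-coding locus 4.86 RPKM. Among genes above 1 RPKM, the median was 33.1 RPKM for the 26 members and 10.5 RPKM for the 18729 listed genes. There were 13 members in the highest 10% of the table. The family summed to 1274 RPKM, which is 0.209% of the summed RPKM of all listed genes. These shares and medians describe the list and were not tested. In RNA of whole roots, fewer cells that express a gene and less RNA per cell cannot be told apart.

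**Figure D1:**
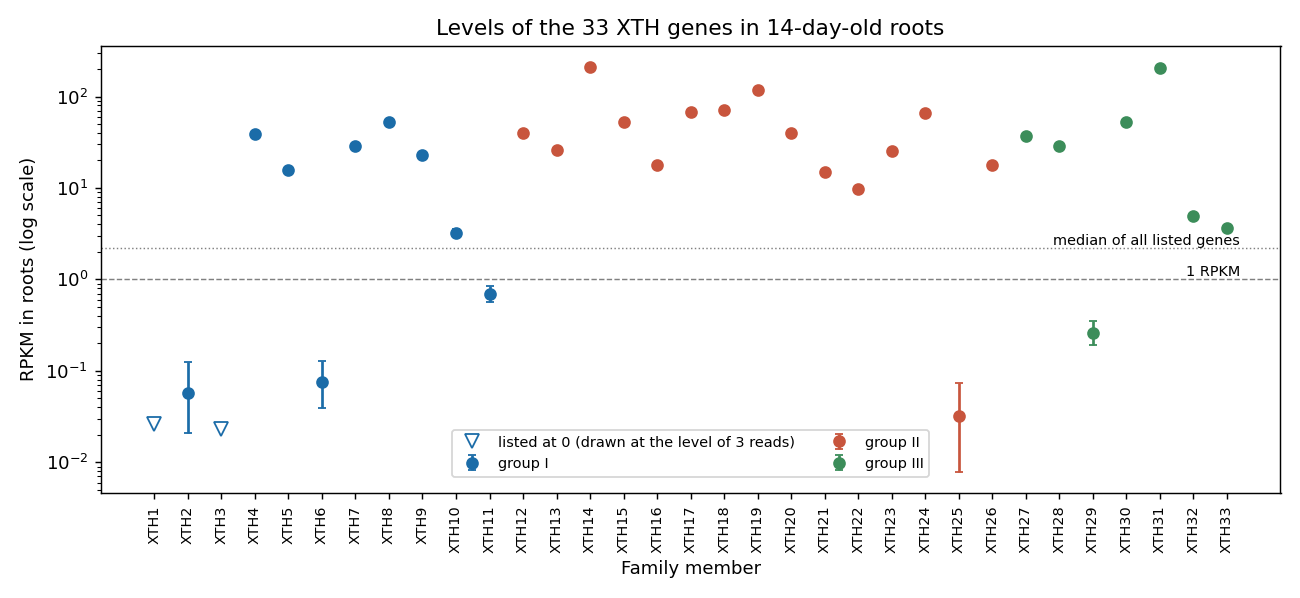
RPKM in roots (vertical axis, log scale) of each of the 33 XTH genes (horizontal axis), colored by group, with 95% Poisson intervals on the estimated reads as bars and open triangles for genes listed at 0, drawn at the level of 3 reads. XTH14 (212 RPKM) and XTH31 (203 RPKM) stand above the others, and 7 members lie below the dashed line at 1 RPKM. The dotted line is the median of all listed genes, 2.21 RPKM.

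The members above 1 RPKM spanned 65.2-fold, from 3.25 RPKM for XTH10 to 212 RPKM for XTH14. XTH14 and XTH31 together held 32.5% of the summed level of the family, and the 5 highest members (XTH14, XTH31, XTH19, XTH18 and XTH17) held 52.8%. In the order of levels, the intervals overlapped at 10 of the 25 steps between neighbors above 1 RPKM. Overlap of intervals is not a test of a difference. XTH8 (52.9 RPKM), XTH30 (52.4 RPKM) and XTH15 (52.3 RPKM), which belong to 3 different groups, had overlapping intervals and are not ordered here. The same holds for XTH12 (40.3 RPKM), XTH20 (40.0 RPKM) and XTH4 (39.0 RPKM). XTH17 (68.1 RPKM) and XTH24 (66.8 RPKM) also had overlapping intervals. The step from XTH14 to XTH31, a ratio of 1.05, was larger than counting error, but without replicates it cannot be set against the spread between libraries.

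**Figure D2:**
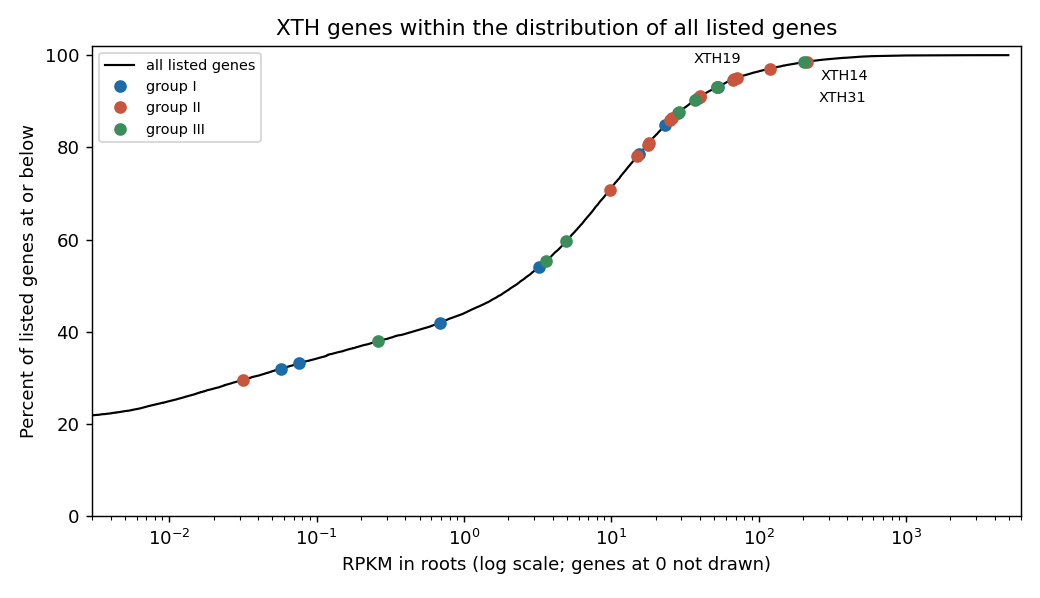
Percent of all 33446 listed genes at or below each RPKM (black line, log scale on the horizontal axis), with the XTH genes above 0 placed on it by group. Most members lie on the upper part of the curve, with XTH14 and XTH31 at percentiles 98.6 and 98.5 of the table, and 5 members between 0 and 1 RPKM lie on its lower part.

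Group II held most of the RNA of the family. Its 15 members summed to 781 RPKM, or 61.3% of the family. Its median was 40.0 RPKM. Above 1 RPKM were 14 members (93.3%), beside 56.0% of all listed genes and 68.4% of genes matched to a protein-coding locus. XTH14 (AT4G25820), whose enzyme has been studied with those of XTH12, XTH13 and XTH26 as isoforms of roots and root hairs, was the highest gene of the family at 212 RPKM (209 to 214 RPKM, about 29283 reads) and ranked 474 in the table. In TAIR10.1 the gene spans chr4:13130291-13131860 (plus strand) and has 3 exons. XTH12 was listed at 40.3 RPKM, XTH13 at 26.0 RPKM and XTH26, known from root hair cells, at 17.7 RPKM. XTH14 was thus far above its nearest relatives, 5.25-fold over XTH12 and 8.14-fold over XTH13.

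XTH17 to XTH20 are a closely related set known for expression in the root. All 4 were among the higher members, with 119 RPKM for XTH19 (AT4G30290), 71.0 RPKM for XTH18 (AT4G30280), 68.1 RPKM for XTH17 (AT1G65310) and 40.0 RPKM for XTH20 (AT5G48070). Together they summed to 298 RPKM, 23.4% of the family. XTH19 was 1.67-fold over XTH18, its neighbor on the chromosome, and 2.97-fold over XTH20. XTH21, a gene linked to growth of the primary root, was listed at 15.1 RPKM.

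The remaining genes of group II include those first found by their response to stimuli. XTH22 (AT5G57560), better known as TCH4 and induced by touch and by brassinosteroids, was listed at 9.80 RPKM, the lowest of the group members above 1 RPKM. XTH23 (XTR6), the closest relative of XTH22, had 25.1 RPKM. XTH24 (MERI5B), described from meristems and, as SEN4, from senescing tissue, had 66.8 RPKM. XTH15 (XTR7), a gene that responds to shade in shoots, was listed at 52.3 RPKM and its closest relative XTH16 at 18.0 RPKM. XTH25 (AT5G57550) alone in this group was below 1 RPKM, at 0.0319 RPKM (0.00777 to 0.0730 RPKM), about 4 reads.

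Of the 11 members of group I, 6 (54.5%) were above 1 RPKM. This share was near the 56.0% of all listed genes and below the 68.4% of genes matched to a protein-coding locus. Another 3 members were between 0 and 1 RPKM and 2 were listed at 0. The group held 12.8% of the summed level of the family, with a median of 3.25 RPKM. XTH8 (AT1G11545) was the highest at 52.9 RPKM. XTH4 (EXGT-A1), which acts in stems in secondary growth, followed at 39.0 RPKM, 2.51-fold over its closest relative XTH5 (EXGT-A4) at 15.5 RPKM. XTH7 had 28.5 RPKM and XTH9, the other gene linked to secondary growth, 23.2 RPKM. XTH10 had the lowest listed value above 1 RPKM, at 3.25 RPKM, with an interval that overlapped that of XTH33 (3.62 RPKM). The low members were XTH11 at 0.691 RPKM (0.566 to 0.841 RPKM, about 103 reads), XTH6 at 0.0758 RPKM (0.0397 to 0.128 RPKM) and XTH2 at 0.0578 RPKM (0.0210 to 0.125 RPKM). XTH1 and XTH3 were listed at 0. Taking 3 reads as the most that a count of 0 allows, the limit is 0.0261 RPKM for XTH1 and 0.0232 RPKM for XTH3, and the exact intervals used for the other members end at 0.0321 and 0.0285 RPKM. XTH3 is the member found to join cellulose chains as well as xyloglucan, and its RNA was not detectable at this depth.

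Group III was led by XTH31 (AT3G44990, XTR8), whose enzyme acts mainly as a hydrolase and which has been linked to root elongation and aluminum sensitivity. It was listed at 203 RPKM (200 to 205 RPKM, about 33426 reads), ranked 504 in the table and by itself made up 15.9% of the summed level of the family. In TAIR10.1 it spans chr3:16446935-16448844 (minus strand) and has 4 exons. XTH32, the other member of the hydrolase branch, was listed at 4.93 RPKM (4.65 to 5.23 RPKM), so that XTH31 was 41.1-fold over XTH32. By the length of the longest transcript XTH32 would have 6.95 RPKM, outside that interval, with XTH31 unchanged, so the fold would be smaller. XTH30 had 52.4 RPKM, and its relative XTH29 had 0.260 RPKM (0.190 to 0.353 RPKM), a 201-fold difference. XTH27, known from developing vessels in leaves, and XTH28, known from stamen filaments, were close to each other at 37.1 and 29.1 RPKM. XTH33, which has a membrane anchor, was listed at 3.62 RPKM.

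Levels were set beside the likeness of the coding sequences. Coding sequences were aligned for all 528 pairs of members. The highest identity was 92.2%, between XTH17 and XTH18, which differed 1.04-fold in level. XTH12 and XTH13 shared 89.7% of aligned bases and differed 1.55-fold. The 9 pairs at or above 80% identity were all within group II, most of them among XTH17 to XTH20. The limit was set after the values were seen. These 9 pairs differed at most 2.97-fold, with a median of 1.74-fold. Among the 153 other pairs within a group for which both members were above 0, the median was 4.12-fold and the highest 6638-fold, between XTH14 and XTH25, XTH25 with only about 4 reads. The pairs next below that limit went both ways. XTH13 and XTH14 shared 79.2% and differed 8.14-fold, and XTH12 and XTH14 shared 78.4% and differed 5.25-fold. XTH27 and XTH28 shared 78.1% and differed only 1.28-fold. Less alike pairs could be far apart or close. XTH6 and XTH7 shared 73.9% and had 0.0758 and 28.5 RPKM, whereas XTH17 and XTH24 shared 74.0% and had 68.1 and 66.8 RPKM. These pairs share members with each other and were not tested. Median identity was 69.6% within group II, 64.7% within group I and 65.8% within group III, and pairs between groups had medians between 63.4% and 64.8%. The median within group I was thus close to that between groups I and II, 64.8%.

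**Figure D3:**
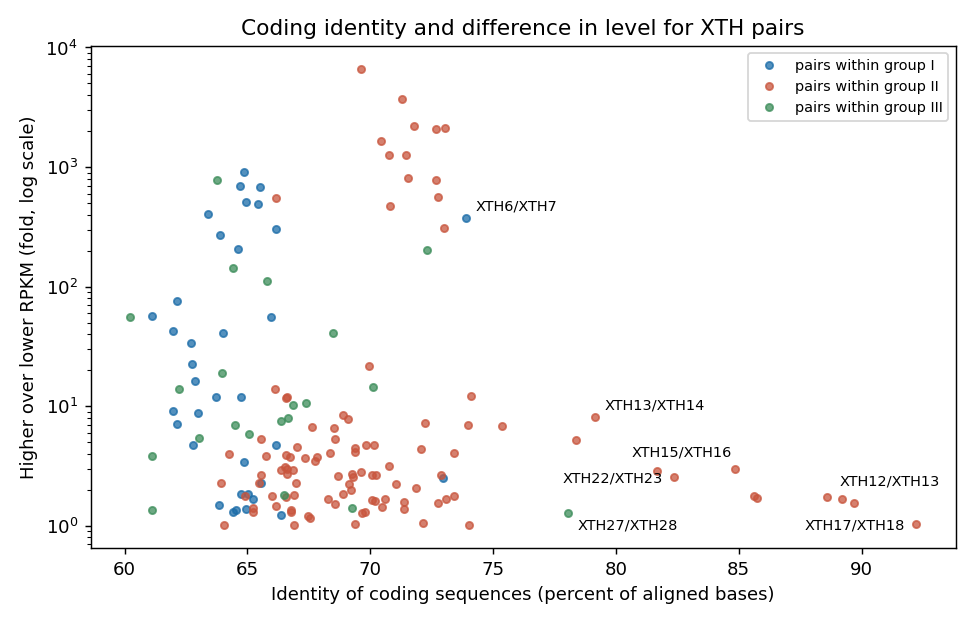
Identity of the coding sequences of 2 members (horizontal axis, percent of aligned bases) and the higher over the lower RPKM of the pair (vertical axis, fold, log scale), for pairs within a group whose members are both above 0. The 9 pairs at or above 80% identity differ at most 2.97-fold. Just below, XTH13 and XTH14 at 79.2% differ 8.14-fold and XTH27 and XTH28 at 78.1% differ 1.28-fold. The highest point, 6638-fold, pairs XTH14 with XTH25, which had about 4 reads.

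Close copies raise the question of whether reads could be assigned. Windows of 61 bases, the read length of the study, were taken along the exons of every member and looked up in the whole genome on both strands. In 30 members every window occurred once in the genome. XTH18 and XTH19 shared 8 windows with each other, which left 99.3% of the windows of each unique. XTH21 had 60 windows that occur more than once in the genome but not in exons of another member, leaving 94.1%. The shared part of XTH18 and XTH19 is a coding stretch of 68 bases. It is shown because it is the only place in exons of the family where a read of this length could come from 2 members.
XTH18 (chr4:14826483-14826550, minus strand) and XTH19 (chr4:14829475-14829542, minus strand): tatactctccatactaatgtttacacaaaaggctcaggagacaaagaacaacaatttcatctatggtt
The levels of 118.7 RPKM for XTH19 and 71.0 RPKM for XTH18 therefore rest almost wholly on reads from within each gene, for reads that match without mismatches and do not cross a splice junction. XTH15 overlaps another gene, AT4G14120, on the opposite strand over 382 bases of exon. AT4G14120 was listed at 2.09 RPKM. Whether strand was used in counting is not given in the sources used here, so the value of XTH15 is uncertain.

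Of the 33 members, 12 lie on chromosome 4. In all, 11 members lie in 4 tandem clusters, in which neighbors are between 363 and 5161 bp apart and on the same strand. Levels within a cluster ranged from alike to far apart. On chromosome 5, XTH12 (40.3 RPKM), XTH13 (26.0 RPKM), XTH25 (0.0319 RPKM) and XTH22 (9.80 RPKM) follow each other, so that XTH25, with about 4 reads, lay between genes 686 and 565 bp away that were above 1 RPKM. The only other gene in this row, AT5G57535 between XTH12 and XTH13, was listed at 0. On chromosome 4, XTH24 (66.8 RPKM), XTH18 (71.0 RPKM) and XTH19 (118.7 RPKM) were all high. XTH14 (212 RPKM) begins 363 bp after XTH23 (25.1 RPKM), an 8.43-fold difference. In the last cluster, XTH1 was listed at 0 and XTH2 at 0.0578 RPKM, 3139 bp apart.

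**Figure D4:**
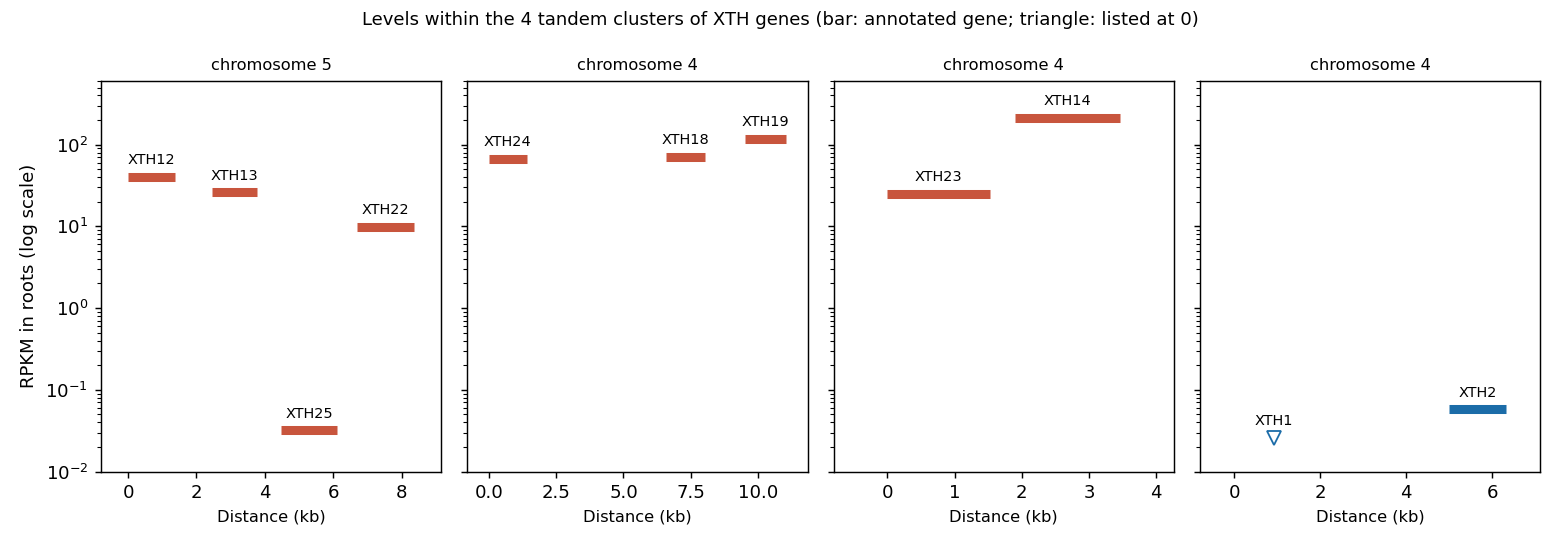
RPKM in roots (vertical axis, log scale) of the 11 XTH genes in tandem clusters against the distance from the first base of each cluster in kb, with each annotated gene as a bar and a triangle for the gene listed at 0, drawn at the level of 3 reads. XTH25 lies far below its neighbors XTH13 and XTH22, and XTH14 above XTH23.

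The groups also differ in gene structure. The transcript with the longest coding sequence had 2 introns in 13 of 15 members of group II and 3 introns in 10 of 11 members of group I and in all 7 members of group III. XTH22, with 1 intron, and XTH26, with 3 introns, were the exceptions in group II. Coding sequences ran from 810 to 918 bp in group II, from 834 to 918 bp in group I and from 882 to 1074 bp in group III. The 250 bases before the annotated start of each gene were searched on both strands for short motifs. TATAAA, the core of the TATA box, was found in 18 of 33 members (54.5%) and in 47.3% of 27443 promoters of the same length, and the median level was 21.6 RPKM for members with it and 28.5 RPKM for those without. The G-box CACGTG was found in none of the members and in 6.49% of all promoters. TGTCTC, an auxin response element, was found in 2 members (XTH3 and XTH6), 6.06% against 10.9%. CGTGTG, a brassinosteroid response element bound by BZR1, was found in 4 members, 12.1% against 5.37%. TTGACC, a W-box, was found in 4 members, 12.1% against 12.2%. The median level with and without the motif was 0.0379 and 26.0 RPKM for TGTCTC and 12.6 and 26.0 RPKM for CGTGTG. It was 22.5 and 25.1 RPKM for TTGACC. With 2 to 4 members carrying each, these medians cannot be read as a link between motif and level. CACGTG and CGTGTG can share letters where they adjoin. The motifs were chosen after the levels had been seen, and a match describes the letters in this window only.

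Most genes of the list for making and trimming xyloglucan were expressed. Of 21 such genes, 20 were above 1 RPKM, against 56.0% of all listed genes and 68.4% of protein-coding genes, with a median of 17.3 RPKM and a summed level of 536 RPKM, against 1274 RPKM for the XTH family. All 5 genes of the glucan synthases that make the backbone were above 1 RPKM, CSLC6 (35.8 RPKM), CSLC5 (30.7 RPKM) and CSLC4 (22.6 RPKM) being higher than CSLC12 (8.04 RPKM) and CSLC8 (3.86 RPKM). Of the xylosyltransferase genes, XXT2 (104 RPKM) was the highest gene of the list. XXT5 (72.9 RPKM, 71.8 to 74.0 RPKM) and the trimming gene XYL1 (71.4 RPKM, 70.6 to 72.2 RPKM) came next, with overlapping intervals, and are not ordered here. XXT2 was 16.1-fold over its relative XXT1 (6.47 RPKM). XXT3 and XXT4 had 4.51 and 5.47 RPKM, and both XXT5 and XXT4 overlap genes on the opposite strand, over 246 and 36 bases of exon, so their values are uncertain.

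Further side chains are added by galactosyl- and fucosyltransferases. MUR3 (28.8 RPKM), XLT2 (17.3 RPKM) and FUT1 (22.5 RPKM) were above XUT1 (5.62 RPKM), which adds galacturonic acid in root hairs. AXY4, an acetyltransferase, had 14.0 RPKM, and its relative AXY4L, known for its action in seeds, was the only gene of the list below 1 RPKM, at 0.702 RPKM (0.590 to 0.836 RPKM). Among the glycosidases that trim xyloglucan in the wall, the alpha-xylosidase XYL1 was highest at 71.4 RPKM. It was followed by the beta-glucosidase BGLC1 (33.9 RPKM), the alpha-fucosidase AXY8 (27.6 RPKM), the beta-galactosidase BGAL10 (12.1 RPKM) and BGLC3 (7.79 RPKM). XTH14, XTH31 and XTH19 were each listed above every gene of this list.

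**Figure D5:**
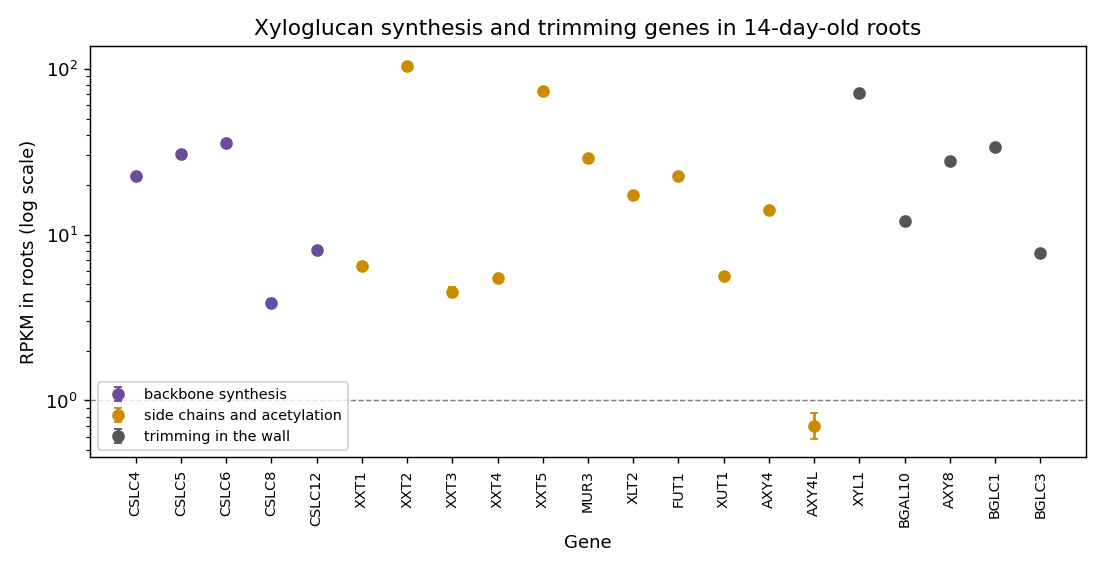
RPKM in roots (vertical axis, log scale) of 21 genes of xyloglucan synthesis and trimming (horizontal axis), with 95% Poisson intervals on the estimated reads and a dashed line at 1 RPKM. XXT2 (104 RPKM), XXT5 (72.9 RPKM) and XYL1 (71.4 RPKM) are highest, and AXY4L (0.702 RPKM) is the only gene below the line.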

How the data were processed

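RNA was sequenced from 14-day-old roots in 3 libraries of 1 condition with single-end reads of 61 bases. The authors counted reads per gene with HTSeq on the TAIR10 genome, computed RPKM with edgeR and deposited 1 column of RPKM for roots. The submitters' processing notes name STAR, and the paper TopHat2, in a passage that also covers leaf data from elsewhere. Versions, annotation release, strand setting, treatment of multiply mapped reads and the way the libraries were combined are not given in the sources used here.

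Names were matched to TAIR10.1 by locus, unique symbol or unique synonym (32552 of 33446). The members and lists were chosen with earlier results of these data known. Named were all XTH genes, a list of 21 xyloglucan genes and marker lists. The locus of AXY8 was corrected after a first look at the values. Exon lengths, coding sequences and windows come from TAIR10.1, and coding sequences were aligned globally. The library size was fitted to the steps between low RPKM values, and the fit was tested on simulated data. It recovered the size of a simulated single set of counts but not that of a simulated mean of 3 libraries. The simulated single set used exactly known exon lengths, and a larger share of its low values lay near whole numbers than the 64.0% found here. The simulation therefore does not settle the size. With 1 column no replicate could be compared and no test was run. Python 3.11.15, numpy 2.4.6, pandas 2.3.3, scipy 1.17.1, Biopython 1.88 and matplotlib 3.10.9 were used. Alternatives were other thresholds, TPM, protein-coding genes, estimated reads, unique windows and transcript length.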

Additional observations from a re-analysis of the deposited data

How the results depend on the processing

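No paired analysis was possible because the table holds a single column and there is 1 condition, and for the same reason no library could be left out. The number of members above the threshold was 27 at RPKM > 0.5, 26 at RPKM > 2 and 27 at TPM > 1, with 59.6%, 50.9% and 58.7% of listed genes. The median of the members was 26.0 RPKM over members above 0 only and 41.3 TPM after rescaling, which multiplies every value by 1.64. The median over all members, 25.1 RPKM, stood beside 4.86 RPKM for protein-coding genes. The share of XTH14 and XTH31 in the family was 31.7% by estimated reads and 32.5% after dividing by the unique share of windows. Dividing by unique windows moved 1 of 33 members, XTH21, beyond its counting interval, and the length of the longest transcript moved 3 (XTH4, XTH17 and XTH32). Of the xyloglucan genes, 21 were above 0.5 RPKM and 20 above 2 RPKM. Depth limits the order of the members under 1 RPKM, of which XTH6, XTH2, XTH25, XTH1 and XTH3 had overlapping intervals between neighbors.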
